A study of Mus musculus with 6 samples.

Results

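The genes described are the mouse Fc receptors for IgG and IgE, the signalling chain that several of them share, and the Fc receptor-like genes. There are 10 of them among the 24885 rows of the count table: Fcgr1, Fcgr2b, Fcgr3, Fcgr4, Fcer1g, Fcer2a, Fcrla, Fcrlb, Fcrl1 and Fcrl5. They were selected by gene name from this family, with results of the comparison of del with fl in view, so their differences between the groups are given as a description and carry no p-value. All 10 have a row, matched through their NCBI gene numbers. A filter on low counts kept 7, and Fcer2a, Fcrlb and Fcrl5 were too low to be fitted.

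The cells were Eµ-Myc lymphoma cells, from mice in which a Myc transgene is driven in the B lineage. Both groups carried homozygous floxed alleles of miR-17~92, a cluster of microRNA genes, and Cre-ERT2, a recombinase that 4-hydroxytamoxifen (4-OHT) activates. The fl group (3 libraries) kept the floxed alleles. The del group (genotype del17-92, 3 libraries) came from cells given 250 nM 4-OHT for 4 days and then subcloned. Both were grown for 48 hours on irradiated mouse embryonic fibroblasts lacking Ink4a, and RNA was read from the 3' ends of transcripts. Deletion, 4-OHT treatment and subcloning cannot be told apart here. Nothing in the labels says that the libraries of a group were separate cultures or clones, so a p-value measures only the spread between these libraries, which may be technical.

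Fc receptors bind the constant part of antibodies. Activating receptors such as Fcgr1, Fcgr3 and Fcgr4 signal through Fcer1g, a small chain with an ITAM (a tyrosine motif that recruits the kinase Syk), and are typical of myeloid cells. Fcgr2b carries an inhibitory motif that recruits the lipid phosphatase encoded by Inpp5d, and it is the IgG receptor of B cells, where it restrains the B cell receptor. Fcer2a encodes CD23, the low affinity IgE receptor of mature B cells. The Fc receptor-like genes belong to the same superfamily: Fcrl1 and Fcrl5 encode B cell surface proteins, while Fcrla and Fcrlb encode proteins that stay inside the cell.

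The fl libraries ranged from 6554423 to 9580630 counts and the del libraries from 2121796 to 3738720, so fl was on average 2.65 times as deep. Levels are in CPM, which divides each count by the size of its library after TMM scaling. Groups are given as mean ± SD over 3 libraries. A positive log2 fold change means a higher level in del, and its ± is the SE. The host transcript of the cluster, Mir17hg, was read at 252, 263 and 262 CPM in fl against 167, 152 and 206 CPM in del, and its 3' tag lies past the microRNAs and so does not check the deletion. Across all 10260 genes fitted, the quasi-likelihood test of edgeR, Benjamini-Hochberg adjusted at 0.05, called 65.1% changed, 32.5% higher and 32.6% lower in del. Counts below are read against that background. The low-count filter also kept genes that were high enough in a single group. For such a gene near 0 in the other group, the direction was fixed by the filter.

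The labelled cell type was checked against 18 B lineage markers. Their summed level was 186 to 232 CPM in fl and 2749 to 2855 CPM in del, and all 17 that could be tested rose, against 32.5% of all genes. Some of these, such as Blk and Cr2 (1 and 2 counts in fl), passed the filter through del alone. Ms4a1, which encodes CD20, had 2 counts in fl and 1 in del. The 18 myeloid markers summed to 57 to 72.4 CPM in fl and 2521 to 3315 CPM in del. Of 10 tested, 8 rose and 2 fell, while Mpo, Csf3r, S100a9, C1qa and C1qb were at 0 in every library. Only 1 myeloid marker fell without fl replicate 3, del replicate 2 or del replicate 3, and 0 without fl replicate 2 or del replicate 1. B lineage and myeloid markers thus moved with the groups, and their part in the Fc receptor differences was not tested. In bulk RNA, fewer cells of a type and less RNA per cell cannot be told apart.

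The deleted cluster encodes microRNAs of 4 seed families, and these are shown because a seed (bases 2 to 8, in capitals) pairs with its target sites. They are RefSeq sequences on GRCm38, 5′ to 3′, grouped by shared seed.
mmu-miR-17-5p: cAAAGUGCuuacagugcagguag
mmu-miR-20a-5p: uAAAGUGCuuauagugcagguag
mmu-miR-18a-5p: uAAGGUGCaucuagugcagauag
mmu-miR-19a-3p: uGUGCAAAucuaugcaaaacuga
mmu-miR-19b-3p: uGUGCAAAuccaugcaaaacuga
mmu-miR-92a-3p: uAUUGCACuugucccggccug

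Each seed was searched as its 7-base complement in the longest annotated 3' UTR of each gene in GENCODE for GRCm38. A site of any family was present in 35.7% of 9746 tested genes, with 15.2% for miR-17/20a, 10.3% for miR-18a, 14.1% for miR-19 and 8.03% for miR-92a. Among the Fc receptor genes 1 site was found, for miR-18a in Fcgr2b (chr1:170958877-170958883, minus strand, base 2131 of a UTR of 2397 bases). The sequence around it, with the site in capitals, is given on the next line.
Fcgr2b miR-18a site: ttcctaatgtGCACCTTtgagtgtgcct
This site lies past the RefSeq end of Fcgr2b, in the part that only the longer GENCODE model holds. The other UTRs were 342 to 1367 bases long, beside a median of 1385 in tested genes, and Fcrlb had no UTR of at least 50 bases annotated in GENCODE. The RefSeq models of Fcer2a, Fcrl1 and Fcrlb reach well past the GENCODE 3' end, and those bases were not searched. A match is a description of letters and does not show that the microRNA acts there.

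Of the 7 genes fitted, 4 were higher in del with no overlap between the groups (Fcrla, Fcgr2b, Fcgr1 and Fcer1g), 2 were lower with no overlap (Fcgr3 and Fcrl1), and 1 overlapped (Fcgr4). Over all genes fitted, 34.2% lay wholly higher and 35.7% wholly lower in del. Because the comparison was in view when the genes were selected, nothing is read from these counts. The median log2 fold change was 0.62 over the 7 and 0.00 over all genes.

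**Figure D1:**
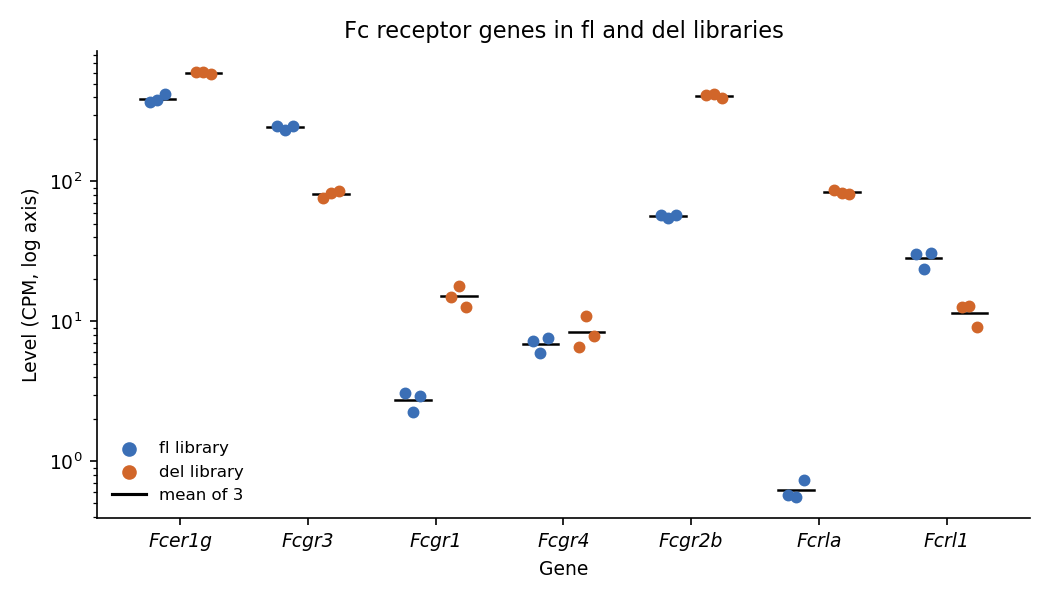
Level in CPM on a log axis of the 7 Fc receptor genes that could be fitted, 1 point per library, with black bars at the mean of 3. Fcgr3 and Fcrl1 sit lower in del, Fcrla, Fcgr2b, Fcgr1 and Fcer1g sit higher, and Fcgr4 overlaps.

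Among the activating IgG receptors the direction differed from gene to gene. Fcgr3 (gene 14131, encoding CD16, a low affinity IgG receptor) stood at 249, 233 and 250 CPM in the fl libraries and at 76.1, 82.9 and 84.9 CPM in the del ones. All del libraries were lower than all fl libraries, and the means were 244 ± 9.79 and 81.3 ± 4.6 CPM. The log2 fold change was -1.59 ± 0.13, or 3-fold lower in del. Fcgr1 (gene 14129, encoding CD64, the high affinity IgG receptor) ran the other way, at 3.1, 2.24 and 2.93 CPM in fl and 15, 18 and 12.7 CPM in del. Every del library was higher, although the level rested on 67 counts in fl and 142 in del. Its means were 2.76 ± 0.455 and 15.2 ± 2.66 CPM, a log2 fold change of 2.44 ± 0.22 (5.43-fold). Fcgr4 (gene 246256, an IgG receptor of intermediate affinity) stood at 7.22, 5.93 and 7.62 CPM in the fl libraries and at 6.58, 10.9 and 7.84 CPM in the del ones. Its groups overlapped and its log2 fold change, 0.24 ± 0.23, was about as large as its standard error. Without del replicate 1 its groups no longer overlapped, and without del replicate 2 the log2 fold change was 0.06.

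The summed level of these 3 receptors was 259, 241 and 261 CPM in fl and 97.7, 112 and 105 CPM in del. The fl sum was therefore higher in every library, at 254 ± 11.1 against 105 ± 7.06 CPM, and Fcgr3 made up most of it in both groups. Per 100 counts of Fcgr3 there were 1.24, 0.962 and 1.17 counts of Fcgr1 in fl and 19.7, 21.7 and 15 in del. Such a ratio within a library does not depend on how libraries are scaled, but it is not a ratio of molecules, since genes may be read with unequal efficiency.

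Fcer1g (gene 14127), the chain these receptors need for signalling and for their place on the surface, stood at 371, 380 and 422 CPM in the fl libraries and at 606, 601 and 591 CPM in the del ones. The del libraries were higher without overlap, at 599 ± 7.8 against 391 ± 27.2 CPM, and the log2 fold change was 0.62 ± 0.13 (1.53-fold). That is a modest difference in these libraries, since 30% of all genes fitted had a fold change at least as high. Counts of Fcer1g per 100 counts of Fcgr1, Fcgr3 and Fcgr4 together were 143, 158 and 162 in fl and 620, 538 and 561 in del, 3.72 times as many in del. Fcer1g was thus higher in del, while the summed level of Fcgr1, Fcgr3 and Fcgr4 was lower. Other receptors that pair with Fcer1g were not part of this sum.

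Fcgr2b (gene 14130), the inhibitory receptor, stood at 57.9, 54.5 and 57.3 CPM in the fl libraries and at 412, 425 and 397 CPM in the del ones. The 3 libraries of each group lay close together and the groups were far apart, at 56.6 ± 1.82 and 411 ± 13.9 CPM. The log2 fold change was 2.86 ± 0.13 (7.27-fold), and 4.57% of genes fitted had a fold change at least as high. Per 100 counts of Fcgr3 there were 23.3, 23.4 and 22.9 counts of Fcgr2b in fl, and 542, 513 and 468 in del. The inhibitory receptor had fewer counts than Fcgr3 in every fl library and more in every del library, a 21.9-fold difference in the ratio. Against the 3 activating receptors together the ratio was 22.3 ± 0.327 per 100 in fl and 393 ± 25.1 per 100 in del.

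**Figure D2:**
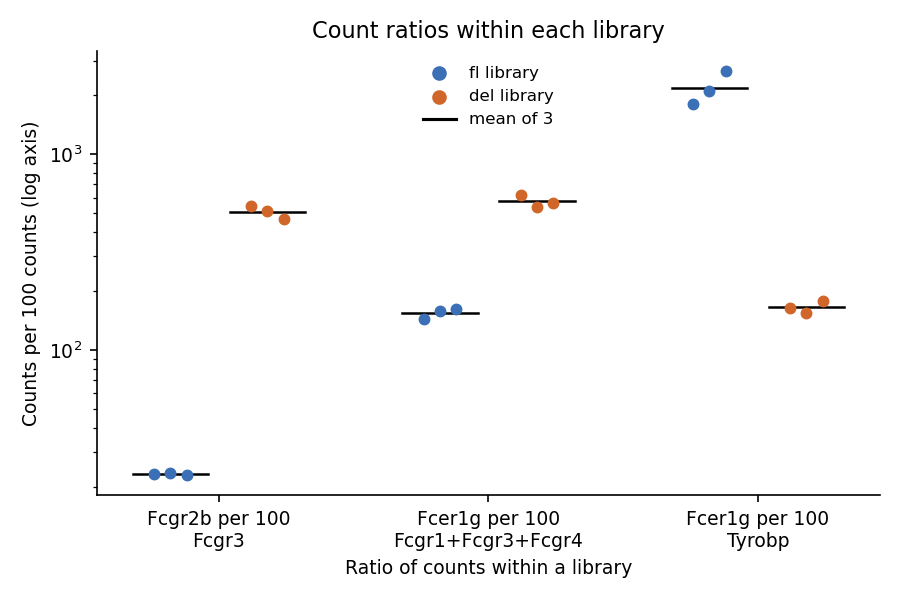
Counts of 1 gene per 100 counts of another within each library, on a log axis, with black bars at the mean of 3 libraries. Fcgr2b per 100 Fcgr3 was 22.9 to 23.4 in fl and 468 to 542 in del, while Fcer1g per 100 Tyrobp was lower in every del library.

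Fcgr2b and Fcgr3 are close relatives, so their transcripts were compared. Of the 1733 distinct 50-base stretches of the annotated Fcgr3 transcripts, 166 (9.58%) also occurred in Fcgr2b. Fcgr2b shared 249 of its 5685 stretches (4.38%) with 47 genes in all. None of these shared stretches lay in the last 500 bases of the holding gene's GENCODE transcript with the longest 3' UTR. For Fcgr2b that end lies past the RefSeq end. Whether shared stretches lie near the RefSeq end, where reads may have been counted, was not examined. Apart from Fcgr2b, Fcgr3 and Fcer2a, the members shared no such stretch with any gene. The GENCODE model of Fcgr2b ends 1941 bases past the RefSeq model, and an antisense gene, Gm38204, overlaps it. The sources used here do not give the annotation or strand setting used for counting, so reads from a longer Fcgr2b end may be uncounted and antisense reads cannot be told apart from sense ones.

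Fcer2a (gene 14128) was close to absent from the counts, with 4, 2 and 3 in fl and 0, 1 and 0 in del. In RefSeq its 3' end overlaps another gene, Trappc5. The annotation and strand setting used for counting are not given, so reads from that end may be uncounted. The counts gave a ratio of 3.53, fl over del, with an exact 95% interval of 0.489 to 155, so no difference was detectable at this depth. Intervals and floors here cover counting error only. Of the stretches in the last 500 bases of its GENCODE transcript 38 occur in other genes, so reads from there would be uncertain. The RefSeq model of Fcer2a reaches further, and stretches near that end were not examined.

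The Fc receptor-like genes split as well. Fcrla (gene 98752), an intracellular protein of B cells that binds immunoglobulin, had 5 counts in each fl library and 328, 175 and 300 counts in del. In CPM that was 0.573, 0.56 and 0.733 in fl and 86.4, 82.9 and 81.1 in del, with every del library higher. The means were 0.622 ± 0.0965 and 83.5 ± 2.69 CPM, and the log2 fold change was 7.04 ± 0.19 (131-fold), which ranked 101 from the top of all genes fitted. Fcrl1 (gene 229499), a B cell surface protein that enhances B cell receptor signalling, stood at 30.2, 23.7 and 30.9 CPM in the fl libraries and at 12.6, 12.8 and 9.19 CPM in the del ones. Every del library was lower, and the means were 28.3 ± 3.96 and 11.5 ± 2.04 CPM (log2 fold change -1.30 ± 0.19, 2.47-fold lower). Fcrl1 was thus lower in del although the B lineage markers as a list were higher.

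Fcrlb (gene 435653) and Fcrl5 (gene 329693, an inhibitory receptor of B cells) had 0 counts in all fl libraries. In del, Fcrlb had 1 count and Fcrl5 had 2, all in replicate 3. The floor of 3 counts over a group was 0.123 CPM for fl and 0.312 CPM for del, so both groups were at or under it and no fold is given.

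The genes lie in 4 places in the genome (GRCm38, RefSeq). On chromosome 1, 6 of them fall within 328 kb: Fcrlb (chr1:170906715-170913829), Fcrla (chr1:170917594-170932216), Fcgr2b (chr1:170960558-170976071), Fcgr4 (chr1:171018926-171029761), Fcgr3 (chr1:171051169-171065915) and Fcer1g (chr1:171229572-171234349), all on the minus strand except Fcgr4. Fcrl1 (chr3:87376353-87403967, plus strand) and Fcrl5 (chr3:87435777-87500678, plus strand) are neighbours on chromosome 3. Fcgr1 (chr3:96282909-96293969) and Fcer2a (chr8:3680280-3694174) stand alone, both on the minus strand.

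In the chromosome 1 run, neighbouring members therefore differed in size and direction. Fcrla and Fcgr2b were higher in del, Fcgr4 beside them overlapped between groups, Fcgr3 next to it was lower and Fcer1g was higher. Within 500 kb, 19 other genes reached 10 CPM in either group. Of these 5 rose and 9 fell (32.5% and 32.6% over all genes), with a median log2 fold change of -0.63. Dusp12, a phosphatase gene on the Fcrlb side, fell from 35.9 to 23.1 CPM (-0.64 ± 0.16, adjusted p = 0.00612 by edgeR). Slamf7, a leukocyte receptor gene at the far end of the run that was singled out after its values were seen, rose from 1.44 to 161 CPM (6.74 ± 0.30, adjusted p = 3.24e-07 by edgeR).

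**Figure D3:**
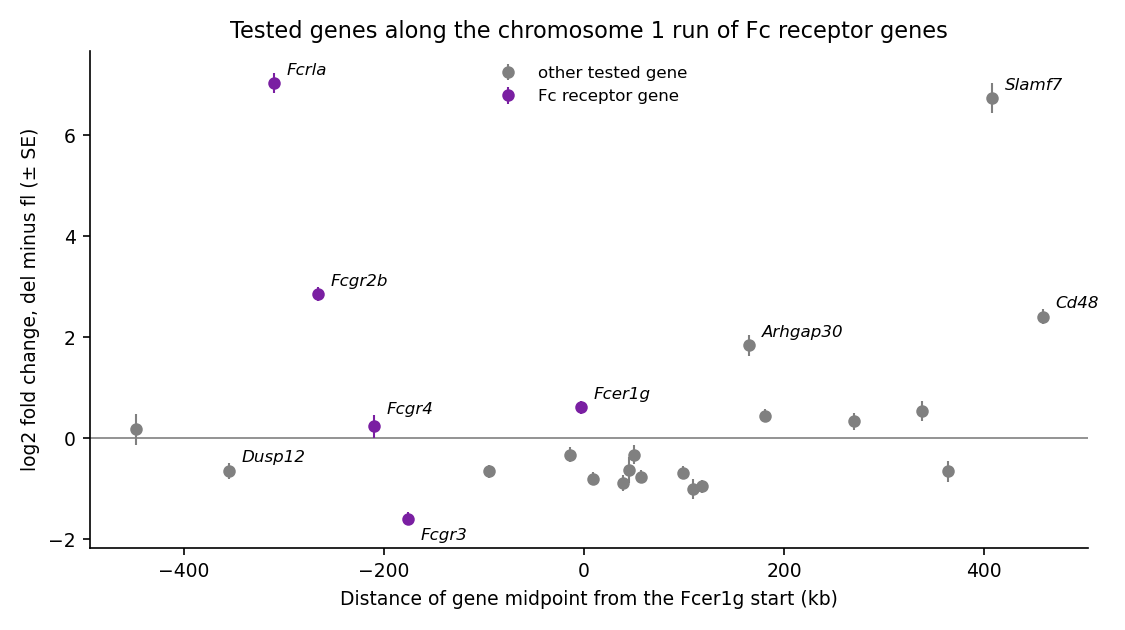
Log2 fold change (del minus fl, bars show ± SE) of genes along the chromosome 1 run against distance in kb from the Fcer1g start, for the 5 Fc receptor genes fitted there (purple) and the 19 other genes of at least 10 CPM (grey). Fc receptor genes range from -1.59 (Fcgr3) to 7.04 (Fcrla), and the 19 other genes have a median of -0.63.

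Around the other members the picture was also mixed, again counting only genes within 500 kb that reached 10 CPM in either group. Over all genes fitted, 32.5% rose and 32.6% fell. Near Fcrl1 and Fcrl5, 1 of 8 such genes rose and 2 fell. Etv3, an ETS family repressor, rose there from 17.7 to 52.9 CPM (1.58 ± 0.16, adjusted p = 3.73e-05 by edgeR) while Fcrl1 was lower. Near Fcgr1, 6 of 19 such genes rose and 9 fell. The histone gene H2bc21 fell on one side (-2.33 ± 0.21, adjusted p = 1.5e-05 by edgeR) and Txnip, a regulator of glucose uptake, rose on the other (0.67 ± 0.13, adjusted p = 0.00143 by edgeR). Near Fcer2a, 2 of 9 such genes rose and 2 fell. Cd209a, a lectin gene of dendritic cells, rose there from 0.162 to 134 CPM (9.50 ± 0.23, adjusted p = 7.17e-08 by edgeR), and Trappc5 was at 0.18 ± 0.13 with an adjusted p of 0.224 by edgeR.

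Promoter sequence was examined because neighbouring members differed. RefSeq promoter windows of 300 bases on GRCm38 were available for all 10 genes, 13 windows in all. Those of Fcgr3, Fcrla and Fcrlb lie inside the gene spans given above, so their start is not the outermost one. The core GAGGAAG, which PU.1 (encoded by Spi1) and related ETS factors recognise, was searched on both strands. It occurred in windows of 5 of the 10 genes (Fcgr1, Fcgr3, Fcgr4, Fcrl1 and Fcrlb) and in 13.6% of all 32851 promoter windows. A gene counted if any of its windows held the motif, while the percentage counts single windows, so the units differ. The same holds for the motifs in the next paragraph. The sequences below run from position -100 to position 40 around the start, 5′ to 3′ on the gene's strand, with the GAGGAAG core or its complement in capitals, together with any other motif listed in the next paragraph. They show 4 genes with the core, which differed in their direction in del, and the 2 genes with the highest fold change. These 2 lack the exact letters GAGGAAG, although Fcrla holds the shorter GAGGAA on the opposite strand and Fcgr2b holds the shorter GGAAG on both strands. Near matches were not searched in any window.
Fcgr1 (chr3:96293930-96294069): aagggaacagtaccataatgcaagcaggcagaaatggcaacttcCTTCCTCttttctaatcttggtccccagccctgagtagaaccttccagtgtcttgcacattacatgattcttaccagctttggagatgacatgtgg
Fcgr3 (chr1:171059364-171059503): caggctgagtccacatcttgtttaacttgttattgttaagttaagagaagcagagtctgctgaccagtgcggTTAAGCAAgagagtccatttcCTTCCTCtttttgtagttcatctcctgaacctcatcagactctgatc
Fcgr4 (chr1:171018826-171018965): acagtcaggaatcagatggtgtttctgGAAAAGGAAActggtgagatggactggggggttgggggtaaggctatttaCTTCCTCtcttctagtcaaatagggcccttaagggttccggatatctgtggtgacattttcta
Fcrl1 (chr3:87376287-87376426): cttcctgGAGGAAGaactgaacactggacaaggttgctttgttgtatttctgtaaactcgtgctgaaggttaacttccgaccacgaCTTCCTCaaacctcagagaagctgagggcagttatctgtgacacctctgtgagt
Fcgr2b (chr1:170976032-170976171): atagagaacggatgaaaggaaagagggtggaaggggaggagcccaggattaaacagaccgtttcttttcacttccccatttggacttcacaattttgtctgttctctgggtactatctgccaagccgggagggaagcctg
Fcrla (chr1:170927544-170927683): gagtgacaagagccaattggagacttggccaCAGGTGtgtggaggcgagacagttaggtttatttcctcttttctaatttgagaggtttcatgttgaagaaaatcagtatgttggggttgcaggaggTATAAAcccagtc

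The core lay at position -56 in Fcgr1, -7 in Fcgr3, -23 in Fcgr4 and at -93 and -14 in Fcrl1. The other motifs searched on both strands were the E-boxes CAGGTG (3 members, Fcrla among them, beside 20.2% of all windows) and CAGCTG (2 members, 16.3%), TATAAA (4 members, 13.6%), the C/EBP letters TTGCNNAA (Fcgr3 only, 10.8%) and the STAT letters TTCNNNGAA (Fcgr1 only, 8.3%). The octamer ATGCAAAT (1.74%) was in none of the windows. An interferon-response core (3.44%) was in Fcgr4 and Fcrla, and an EBF motif (0.904%) in none. Genes with the GAGGAAG core were higher (Fcgr1), lower (Fcgr3 and Fcrl1) or overlapping (Fcgr4) in del. The absence of these letters from a window says nothing about binding elsewhere.

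Factors known to act on Fc receptor genes were mostly higher in del. Of 20 tested, 16 rose and 1 fell, with a median log2 fold change of 2.24 beside 0.00 for all genes. Ebf1, Pax5 and Pou2af1 are also among the B lineage markers. Other lists share genes too, among them Cd79a, Cd79b, Blnk, Cr2, Tyrobp and Lyn, so counts from different lists are not independent. The 4 factors of smallest adjusted p were Pou2af1, Ets1, Ebf1 and Spib, which are not all particular to the B lineage. Pou2af1, a B cell coactivator, rose from 9.5 ± 1.14 to 315 ± 16.1 CPM (5.04 ± 0.16, adjusted p = 9.39e-08 by edgeR). Ebf1, which sets B cell identity, rose from 0.263 ± 0.281 to 113 ± 28 CPM, Ets1 from 1.6 ± 0.421 to 67.3 ± 15.6 CPM and Spib from 0.508 ± 0.202 to 18.7 ± 1.89 CPM. Spi1, the gene of PU.1, was outside the naming rule and is given for its motif: it rose from 48 ± 4.98 to 92.4 ± 6.58 CPM (0.94 ± 0.14, adjusted p = 0.000277 by edgeR). Gabpa was the factor that fell (-0.69 ± 0.13, adjusted p = 0.00116 by edgeR), and Cebpa was at 0 in every library. Without fl replicate 1, or without del replicate 3, 2 factors fell.

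Other receptors that bind antibody Fc parts were mostly near 0 in fl. Of 10 genes, 3 could be tested and all 3 rose. Fcmr and Fcer1a passed the filter through del alone, so their direction was fixed by it. Fcmr, the IgM receptor of B cells, had 1 count in fl and 166 in del, a ratio of 423 with an exact 95% interval of 74.9 to 16805. Fcer1a, the ligand-binding chain of the high affinity IgE receptor, had 0 counts in fl and 39 in del, which makes it at least 33.1-fold higher against a floor of 3 counts over the fl group. Trim21, a cytosolic antibody receptor, rose from 3.33 ± 0.343 to 8.34 ± 1.58 CPM (2.56-fold, adjusted p = 0.000635 by edgeR). Fcrls had 1 and 18 counts and was not tested. Fcgrt had 2 and 0 counts, Pigr 0 and 3, and Fcamr, Ms4a2, Fcrl6 and Fcgbp were at 0 throughout. Ms4a2 encodes the beta chain of the high affinity IgE receptor, so only 1 of its specific chains was read. Of 11 mast cell and basophil markers, which include Fcer1a, 7 were at 0 in every library (Kit, Cpa3, Mcpt8, Ms4a2, Cma1, Tpsb2 and Prss34), and the sum was 1.15 to 3.02 CPM in fl and 2.9 to 6.22 CPM in del.

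Downstream of the activating receptors, 19 of 27 tested genes rose, 5 fell and 3 did not pass, with a median log2 fold change of 1.33. Syk, the kinase that docks on the ITAM, stood at 4.47, 6.15 and 5.42 CPM in the fl libraries and at 69, 55 and 89.7 CPM in the del ones. The groups did not overlap, and the rise was 13.4-fold (3.74 ± 0.22, adjusted p = 1.55e-06 by edgeR). Blnk, the B cell adaptor that links Syk to phospholipase C gamma, rose 6.55-fold (adjusted p = 9.74e-07 by edgeR). Pik3cd, a catalytic PI3-kinase subunit, rose 3.98-fold (adjusted p = 4.11e-06 by edgeR), and Gab2, a docking protein, rose from 0.163 ± 0.0603 to 14.8 ± 2.91 CPM (adjusted p = 1.08e-06 by edgeR). The 5 that fell were Fgr, Lat, Lat2, Grap2 and Nfatc2, named after their values were seen because they are few. Fgr is a Src-family kinase and the adaptors Lat and Grap2 are best known from T cells. Grap2 went from 16 ± 2.94 to 0.0901 ± 0.156 CPM, with 384 counts in fl and 1 in del.

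Most genes of the inhibitory side rose as well. Of 15 genes tested, 12 rose and 2 fell (Ptpn22 and Dok2), with a median of 1.22. Inpp5d, the phosphatase that Fcgr2b recruits, stood at 47.9, 50.2 and 55.4 CPM in the fl libraries and at 110, 134 and 138 CPM in the del ones. All del libraries were higher (2.49-fold, 1.32 ± 0.14, adjusted p = 5.14e-05 by edgeR). Ptpn6, encoding the tyrosine phosphatase SHP-1, rose 4.03-fold (adjusted p = 7.03e-05 by edgeR), Pag1, an adaptor that anchors an inhibitor of Src kinases, 2.49-fold (adjusted p = 7.79e-05 by edgeR), and Ptprc, encoding CD45, 5.72-fold (adjusted p = 3.19e-06 by edgeR). Within libraries, counts of Inpp5d per 100 counts of Syk were 1072, 816 and 1022 in fl and 160, 244 and 154 in del. This ratio was thus lower in every del library, while that of Fcgr2b to the activating receptors was higher.

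Fcer1g is 1 of several ITAM chains, of which Tyrobp, Cd79a and Cd79b were also high enough to be tested. A list of such chains, Fcer1g partner receptors and related genes had 13 tested genes. Of these 10 rose and 1 fell, with a median of 6.01. Some that rose, such as Lilra5 and Lilra6 (0 and 1 counts in fl), passed the filter through del alone. Both the count and the median include them. The related genes, which are neither, include the adaptor gene Hcst and the inhibitory receptor genes Lilrb4a and Pirb. Tyrobp, encoding DAP12, stood at 20.5, 18.1 and 15.8 CPM in the fl libraries and at 369, 390 and 332 CPM in the del ones (19.9-fold, adjusted p = 1.59e-07 by edgeR). Cd79a and Cd79b, the ITAM chains of the B cell receptor, rose 18.7-fold and 78.7-fold (adjusted p = 1.59e-07 and 7.17e-08 by edgeR). Lilrb4a, an inhibitory leukocyte receptor, rose from 0.744 ± 0.55 to 373 ± 32.3 CPM. Counts of Fcer1g per 100 counts of Tyrobp were 1806, 2094 and 2662 in fl and 164, 154 and 178 in del, 13.2-fold lower in del. The gene that fell was Hcst, encoding the adaptor DAP10 (-1.57 ± 0.27, adjusted p = 0.000653 by edgeR).

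Genes around CD23 were read although Fcer2a itself was nearly absent from the counts. Of 12 tested partners and regulators 8 rose and 2 fell, with a median of 1.38. Il21r, an interleukin receptor of lymphocytes, rose 15.3-fold and Adam8, a membrane protease, 11.9-fold. Rbpj, the DNA-binding partner of Notch, rose 3.68-fold, and the kinase Lyn rose 4.3-fold (adjusted p = 1.7e-05 by edgeR). The 2 that fell were Cd40, a costimulatory receptor of B cells, from 16.6 ± 0.595 to 2.12 ± 1.66 CPM, and the lectin gene Lgals3, from 20.4 ± 1.76 to 4.55 ± 1.61 CPM.

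**Figure D4:**
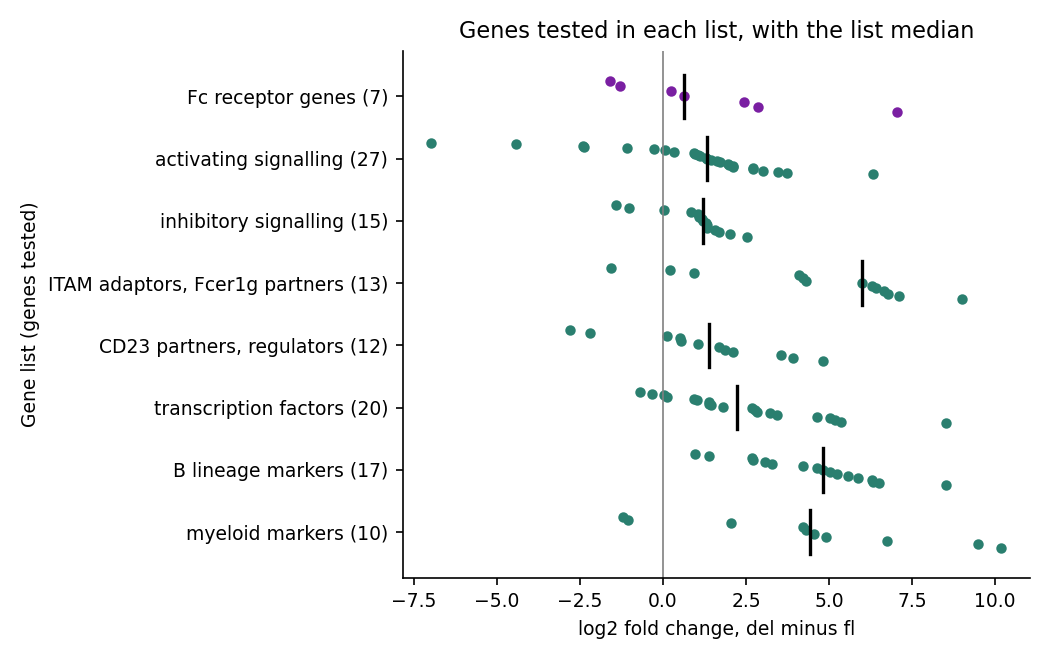
Log2 fold change (del minus fl) of every tested gene in 8 lists, 1 point per gene, with a black bar at the list median and the number tested in brackets. The Fc receptor genes lie on both sides of 0 with a median of 0.62. Genes shared between lists are drawn in each. The list labelled ITAM adaptors, Fcer1g partners also holds related genes that are neither, and its median is 6.01.

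Markers of other cells moved with the groups as well, and their part in the Fc receptor results was not tested. Of 6 tested dendritic cell markers 4 rose and 1 fell, with sums of 283 to 318 CPM in fl and 678 to 833 CPM in del and Clec9a at 0. Of 4 plasma cell markers 1 rose and 2 fell, with sums of 209 to 230 and 184 to 231 CPM and Tnfrsf17 at 0. The 2 T and NK cell markers tested, Cd5 and Lck, both fell, with list sums of 25.5 to 31.1 CPM in fl and 2.43 to 6.06 CPM in del and Cd3e, Cd8a, Ncr1, Nkg7, Gzma and Prf1 at 0. Lck, at 0 counts in del, passed the filter through fl alone. Fibroblast markers, which feeder cells would carry, summed to 1.61 to 8.5 CPM in fl and 14.2 to 34.1 CPM in del, with Lum at 0. Of 3 fibroblast markers tested 2 rose, and 4 rose without fl replicate 3 or without del replicate 1, when more of them could be tested. Of the T and NK cell markers 1 fell when any fl replicate was left out.

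The genes whose profile was most like each member were found by the root mean square difference of centred log2 CPM over the 6 libraries. For Fcgr3 they were Tomm20 (0.039) and Gipc1 (0.055), for Fcrl1 Psmg3 (0.028) and Psmg1 (0.063), and for Fcer1g Rap1b (0.036) and Atp2a3 (0.042). For Fcgr1 they were Plekhm3 (0.058) and Zbtb18 (0.066), for Fcgr2b Nuak1 (0.063) and S100a13 (0.066), and for Fcrla Zeb2 (0.17) and Cd300ld (0.19). Genes with an equal step between the 2 groups come out alike by this measure. The prior count of 2 narrows that step in genes near 0, such as Nuak1, which was 0 in fl and 2.12 CPM in del. Fcrla had no gene as near as the other members did, and Zeb2, its nearest, went from 4.94 to 410 CPM.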

How the data were processed

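The authors deposited raw counts per gene for 6 libraries of 3' RNA. STAR, HTSeq and mm10 are named in the submitters' processing notes, with versions, annotation and strand setting not given in the sources used here. Per the labels' protocols, cDNA was primed with barcoded oligo-dT, pooled by Actb level and amplified by PCR into strand-specific libraries. Columns were matched to samples by title. Symbols came from the RefSeq table of GRCm38.p6, which matched 23969 of 24052 gene numbers.

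The deposited counts were fitted with edgeR 4.0.16 (R 4.3.3): filterByExpr by group, TMM factors, robust quasi-likelihood F test with group alone, Benjamini-Hochberg over 10260 genes, threshold 0.05. CPM used the TMM-scaled sizes. The script was tested on simulated counts. Likeness and the profile comparison used log2 CPM with a prior count of 2. Alternatives were other scalings, DESeq2 1.42.0, filters, thinning, a replicate block and each library left out.

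The Fc receptor genes, the gene lists and the motifs were chosen with earlier results of these data known. All Fc receptor genes and other Fc-binding receptors were named, the 4 genes of smallest adjusted p in each list, the nearest neighbours of at least 10 CPM and the 2 most alike genes. The remaining names were picked with their values in view. Some genes that the naming rule covers are not reported here.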

Additional observations from a re-analysis of the deposited data

How the results depend on the processing

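Across 15 alternative settings no Fc receptor gene changed direction. The log2 fold change ran from 2.30 to 2.56 for Fcgr1, 2.74 to 2.90 for Fcgr2b, -1.71 to -1.54 for Fcgr3, 0.06 to 0.39 for Fcgr4 (14 settings, since it fails the filter of 10 CPM), 0.49 to 0.68 for Fcer1g, 6.91 to 7.15 for Fcrla and -1.43 to -1.15 for Fcrl1. The ratio of Fcgr2b to Fcgr3 differed 20.9-fold to 22.7-fold in the 7 settings that can change it (thinning and each library left out). Upper-quartile factors moved the median of all genes to -0.13. Genes called higher ranged from 2709 to 3499 and lower from 2681 to 3787. The replicate block gave 3295 higher and 3215 lower and left the counts of Fc receptor genes at 4 and 2. The numbers were not taken to pair the libraries: deviations of libraries with the same number correlated at 0.0825, -0.0386 and -0.02, and not every library correlated best with its own number. Of the transcription factors, 2 instead of 1 fell with upper-quartile factors and after thinning to the shallowest library, and 1 to 2 with a library left out. At 10 CPM in 3 libraries, 1 instead of 3 other Fc-binding receptors rose and 3 instead of 5 activating genes fell (also 3 after thinning). In the list of ITAM chains, Fcer1g partners and related genes 0 instead of 1 gene fell at that filter. Fewer genes were tested there. For the other moves the cause was not tested. Depth was lower in del, and Fcer2a, Fcrlb and Fcrl5 had too few counts to be fitted.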
